A study of Mus musculus with 2 samples.

Results

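Matricellular proteins are secreted into the extracellular matrix, where they signal to cells through integrins and other receptors and bind growth factors, while contributing little to the matrix as structural elements. The genes described here are 10 members of this class, from a list of names chosen with earlier results of these data known. All of the list is reported: Sparc, Postn (periostin), Tnc (tenascin C), Thbs1, Thbs2, Thbs3 and Thbs4 (thrombospondins), Ccn1 and Ccn2 (the CCN family, earlier called Cyr61 and Ctgf) and Spp1 (osteopontin). They are 10 of the 43346 Ensembl genes in the deposited gene tables, and their 46 annotated transcripts are among 129984 transcripts in the transcript tables. Total RNA was sequenced from whole hearts of newborn mice on the day of birth (postnatal day 0) of strain B6NCrl. Each of the 2 libraries came from the single heart of 1 newborn, pup 2 (replicate 1) and pup 3 (replicate 2), both from the pregnancy numbered 1 and under the same donor record. The labels name no treatment and no altered allele, and sex was not collected. The study therefore holds 1 group and no contrast between conditions, and every ratio below is pup 2 over pup 3.

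In the heart these proteins are best known from valve and septum formation, from the fibrous skeleton, and from repair after injury, when many of them rise from low adult levels. Periostin is made mainly by cardiac fibroblasts and valve cells and acts in collagen fibril formation. SPARC binds collagen and acts in its deposition, and the CCN genes are textbook targets of the YAP and TEAD transcription factors and of transforming growth factor beta.

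The libraries held 46151722 expected counts in pup 2 and 44707283 in pup 3, and 13121 genes in pup 2 and 13162 in pup 3 reached 1 TPM (a relative transcript level corrected for gene length and depth). All 6 cardiomyocyte markers were detected in both hearts and summed to 37895 TPM in pup 2 and 33958 TPM in pup 3, so the defining markers of the labelled tissue were present. Of the 13 cell type lists examined, the 5 lung epithelial markers had the widest range of ratios between the libraries: Scgb3a2, a secretoglobin of airway epithelium, was at 2.96 TPM in pup 2 and 563 TPM in pup 3, whereas Sftpc, the surfactant protein of alveolar type 2 cells, was at 25.5 TPM in pup 2 and 0.34 TPM in pup 3. All 5 erythroid markers were higher in pup 2, with a summed level of 6036 TPM in pup 2 and 3916 TPM in pup 3. In such whole-tissue RNA, fewer cells of a type and less RNA per cell cannot be told apart.

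Some of the genes are spliced in ways that the transcript tables resolve, and the sequences concerned are shown first because the isoform results below turn on them. Periostin has 2 alternatively used coding exons near the end of its reading frame, exon 17 and exon 21 of the 23-exon transcript Postn-202. The first spans chr3:54380412-54380492 (mm10, plus strand; 81 bases, 27 codons) and the second chr3:54385671-54385754 (84 bases, 28 codons). Tenascin C has a coding exon of 273 bases (91 codons) at chr4:63984460-63984732 on the minus strand, which lies in Tnc-203 alone among its 3 full-length transcripts. Capitals mark the exon and lower case the neighbouring exons' transcribed bases on either side.
Postn exon of 81 bases: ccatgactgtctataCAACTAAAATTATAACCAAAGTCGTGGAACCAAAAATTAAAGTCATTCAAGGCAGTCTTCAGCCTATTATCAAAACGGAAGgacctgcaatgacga
Postn exon of 84 bases: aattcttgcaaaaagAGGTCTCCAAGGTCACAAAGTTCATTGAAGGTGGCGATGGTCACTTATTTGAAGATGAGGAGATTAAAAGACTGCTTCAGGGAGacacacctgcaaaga
Tnc exon of 273 bases: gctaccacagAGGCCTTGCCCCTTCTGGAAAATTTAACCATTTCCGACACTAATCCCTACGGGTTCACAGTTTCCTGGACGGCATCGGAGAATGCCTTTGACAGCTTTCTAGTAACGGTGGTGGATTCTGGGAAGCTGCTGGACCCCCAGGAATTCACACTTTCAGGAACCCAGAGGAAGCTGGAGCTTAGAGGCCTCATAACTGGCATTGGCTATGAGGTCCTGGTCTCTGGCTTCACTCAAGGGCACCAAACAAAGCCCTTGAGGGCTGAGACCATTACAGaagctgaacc

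In Sparc, 3 transcripts differ at 1 splice junction, where an exon ending at chr11:55407220 (mm10, minus strand) starts at 3 positions that lie 3 bases apart. The exon is 60 bases long in Sparc-201, 57 in Sparc-202 and 54 in Sparc-206. Below, capitals mark the bases that a transcript has beyond the shortest form.
Sparc-201 junction: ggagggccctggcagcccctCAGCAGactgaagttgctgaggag
Sparc-202 junction: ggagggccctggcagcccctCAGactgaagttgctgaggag
Sparc-206 junction: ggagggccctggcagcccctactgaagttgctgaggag
Another transcript, Sparc-205 (741 bases, annotated as a retained intron), begins inside an intron at chr11:55402072-55402165 (minus strand). It is shown because it had the highest TPM of any Sparc transcript, with the 94 intron bases in capitals and the following exon in lower case.
Sparc-205 start: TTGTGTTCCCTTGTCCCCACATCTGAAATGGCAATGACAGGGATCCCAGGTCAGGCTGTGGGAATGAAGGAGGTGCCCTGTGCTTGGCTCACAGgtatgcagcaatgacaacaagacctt

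All 10 genes were detected at 1 TPM or more in both hearts, and their levels spanned a 382-fold range between Sparc and Tnc. Together they made up 1712 TPM in pup 2 and 1749 TPM in pup 3, or 0.173% of all TPM. Sparc supplied 78.7% ± 0.975 and Postn 15.3% ± 0.758 of that sum (SD, n = 2), which left 5.97% ± 0.217 for the other 8 genes. The range and these shares include all Sparc transcripts, of which protein-coding forms held 56.3% of Sparc TPM in pup 2 and 58.0% in pup 3. The plot of levels by gene and pup shows 2 abundant genes and a group of 8 between about the level of Tnc and that of Ccn1.

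**Figure D1:**
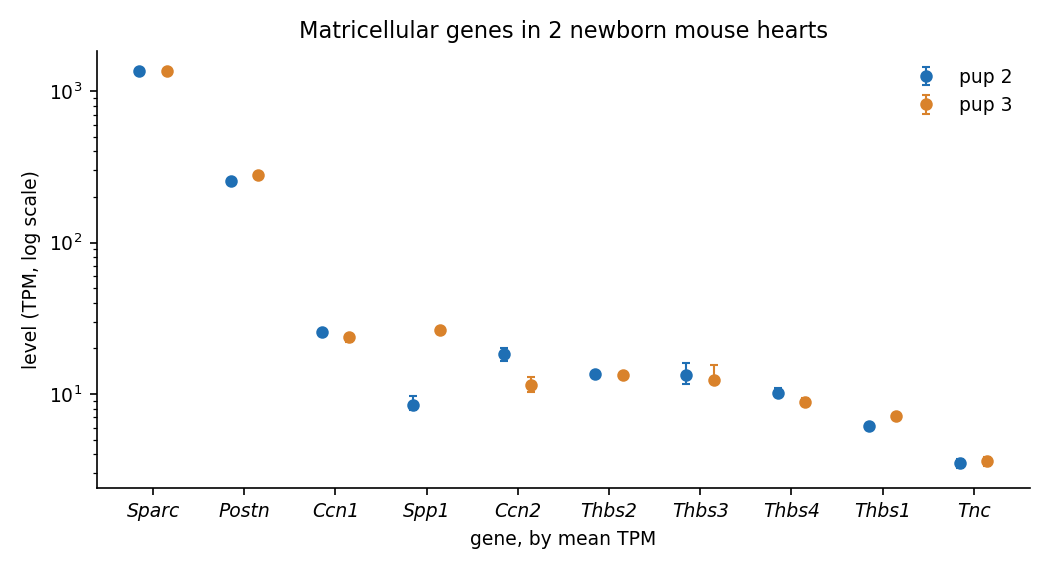
Level of each of the 10 matricellular genes (x axis, ordered by mean) in TPM on a log axis (y axis) in pup 2 and pup 3; points are the deposited estimates and bars the deposited intervals of TPM. Sparc (1359 and 1364 TPM) and Postn (254 and 278 TPM) lie far above the rest, and Spp1 (8.51 and 26.3 TPM) shows the widest gap between the pups.

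Positions of genes are given on mm10 from GENCODE M21. Sparc (chr11:55394500-55423183, minus strand), the collagen-binding glycoprotein that names the SPARC family, was the most abundant member, at 1359 TPM in pup 2 and 1364 TPM in pup 3 (1362 ± 4.18, SD, n = 2). It ranked 110th among all genes by mean TPM. Its relative Sparcl1, the SPARC-like gene (hevin), was at 65.0 TPM in pup 2 and 65.4 TPM in pup 3, so that Sparc was 20.9-fold higher. On the log2 scale of TPM + 1 this ratio was 4.36 in each heart. It was 3.56 with protein-coding transcripts only and 3.19 by counts without division by length. Sparc was 78.2-fold above Spp1 by means, but 159.6-fold in pup 2 and 51.8-fold in pup 3. The mean log2 ratio of this pair, 6.40, was 5.59 with protein-coding transcripts only and 6.43 by counts.

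Postn (chr3:54361109-54391037, plus strand) stood at 254 TPM in pup 2 and 278 TPM in pup 3 (266 ± 17.2), rank 482. Its fasciclin domains are shared by its paralogue Tgfbi, which was at 18.6 TPM in pup 2 and 17.5 TPM in pup 3. Postn was 14.7-fold above Tgfbi and 5.12-fold below Sparc. The log2 ratio of Postn over Sparc, -2.35, was smaller in size with protein-coding transcripts only (-1.58) and by counts (-1.28). Against Tnc, a hexameric glycoprotein that binds periostin, Postn was 74.5-fold higher, a log2 ratio of 5.87 per length and 4.86 by counts. Tnc (chr4:63959785-64047015, minus strand) was the lowest member, with 3.50 TPM in pup 2 and 3.63 TPM in pup 3 (3.56 ± 0.0919), rank 9999.

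The 4 thrombospondins together reached 43.2 TPM in pup 2 and 41.9 TPM in pup 3. Thbs1 (chr2:118111876-118127133, plus strand) and Thbs2 (chr17:14665500-14694235, minus strand) form the trimeric subgroup, whose type 1 repeats bind CD36; Thbs1 also activates latent transforming growth factor beta. Thbs2 had 13.5 TPM in pup 2 and 13.4 TPM in pup 3 and was 2.03-fold above Thbs1, which had 6.11 TPM in pup 2 and 7.16 TPM in pup 3. Thbs3 (chr3:89215180-89226837, plus strand) and Thbs4 (chr13:92751590-92794818, minus strand) belong to the pentameric subgroup with Comp, and Thbs4 acts in the endoplasmic reticulum of mouse cardiomyocytes under stress. Thbs3 had 13.4 TPM in pup 2 and 12.4 TPM in pup 3, against 10.2 TPM in pup 2 and 8.87 TPM in pup 3 for Thbs4. The order of Thbs3 over Thbs4, 0.40 on the log2 scale of TPM + 1, turned to -0.75 when only protein-coding transcripts were counted, and to -0.50 by counts without division by length. Likewise Thbs1 lay below Thbs4 per length (-0.47) and above it by counts (0.36).

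Of the CCN genes, both of which encode short-lived, inducible transcripts, Ccn1 (chr3:145646976-145649981, minus strand) had 25.8 TPM in pup 2 and 23.7 TPM in pup 3, with rank 3899. Ccn2 (chr10:24595442-24598683, plus strand) had 18.5 TPM in pup 2 and 11.6 TPM in pup 3, with rank 5418. Ccn1 exceeded Ccn2 in both hearts, 1.65-fold by means. Ccn5, a relative without the C-terminal cystine-knot domain, was at 1.09 TPM in pup 2 and 2.14 TPM in pup 3, and Ccn2 was 9.29-fold above it by means, 16.9-fold in pup 2 and 5.40-fold in pup 3.

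Spp1 (chr5:104435118-104441050, plus strand) encodes osteopontin, an acidic phosphoprotein of bone and a cytokine of macrophages that binds integrins and CD44. It was at 8.51 TPM in pup 2 and 26.3 TPM in pup 3 (17.4 ± 12.6, SD, n = 2). Its place in the order differed accordingly: in pup 3 it exceeded Ccn1, and in pup 2 it was below Thbs4.

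By mean TPM the order was Sparc, Postn, Ccn1, Spp1, Ccn2, Thbs2, Thbs3, Thbs4, Thbs1 and Tnc. Neighbours were counted as separated when both pups had the same order, the mean log2 ratio of TPM + 1 was larger than its difference between the pups, and the deposited TPM intervals did not overlap in either pup. By this rule 5 of the 9 neighbouring pairs were separated. The pairs not separated were Ccn1 and Spp1, Spp1 and Ccn2, Ccn2 and Thbs2, and Thbs2 and Thbs3, and in 3 of these 4 the order itself differed between the pups. All 10 chosen pairs, described above, met the rule. No test stands behind these calls, because the smallest two-sided p that an exact sign-flip test can give with 2 animals is 0.5.

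The main question the 2 libraries allow is how far littermates differ. A difference was counted at an absolute log2 ratio of scaled counts of 1 or more, in genes averaging at least 50 counts, and also at 0.5 or more. All 10 members passed the count minimum, the lowest single count being 429. Of the 10, 1 gene (Spp1) passed an absolute log2 ratio of 1, where 0.498% of the 13463 tested genes did. Spp1 was higher in pup 3, the direction of 0.334% of tested genes, while 0.163% passed 1 with the higher level in pup 2. At 0.5, 2 members passed (Spp1 and Ccn2), against a background of 3.39% of tested genes. Ccn2 was higher in pup 2, as were 1.52% of tested genes at this ratio, and 1.87% of tested genes were higher in pup 3 to that degree. The median log2 ratio was -0.02 over the members and 0.001 over all tested genes. Expression of 5 members was within 1.1-fold and of 8 within 1.2-fold between the pups. The members were not closer than genes at large by this count, since the median absolute log2 ratio of all tested genes was 0.104, itself within 1.1-fold. In direction, 4 members were higher in pup 2 and 6 in pup 3, beside 50.4% and 49.6% of all tested genes.

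Spp1 had 429 expected counts in pup 2 and 1302 in pup 3. Its log2 ratio was -1.63, with a 95% counting interval of -1.79 to -1.47, so that it was 3.09-fold lower in pup 2 (2.78 to 3.47). In all, 32 tested genes, or 0.238%, lay as far or farther from equality. The interval covers counting error alone, since with 1 library per animal the spread between animals is not measured.

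Ccn2 had 1335 expected counts in pup 2 and 878 in pup 3, a log2 ratio of 0.57 (counting interval 0.45 to 0.70) and a 1.49-fold higher level in pup 2. As many as 293 genes, 2.18% of those tested, differed by at least as much. Its paralogue Ccn1 had 1899 counts in pup 2 and 1724 in pup 3, a log2 ratio of 0.11. Thbs1 followed in size, with 1341 counts in pup 2 and 1553 in pup 3 (log2 ratio -0.24), then Thbs4 with 1193 counts in pup 2 and 1038 in pup 3 (0.17). Postn, with 27142 counts in pup 2 and 29411 in pup 3, had a log2 ratio of -0.15 and a counting interval of -0.17 to -0.12.

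The remaining members differed by less. Sparc had 67888 counts in pup 2 and 69522 in pup 3 (log2 ratio -0.07), and Tnc 927 in pup 2 and 935 in pup 3 (-0.04). Thbs3 had 802 counts in pup 2 and 748 in pup 3 (0.07). Thbs2 had 3002 in pup 2 and 2948 in pup 3, a log2 ratio of -0.01 whose sign turned without scaling or as a TPM ratio. The counting interval excluded equality for 7 of 10 members, where it did so for 39.0% of all tested genes, and the deposited TPM intervals of the pups did not overlap for 5 members (Postn, Spp1, Thbs1, Thbs4 and Ccn2), against 17.6% of tested genes. Deep counts narrow such intervals, as for Postn, whose levels differ by 1.11-fold.

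**Figure D2:**
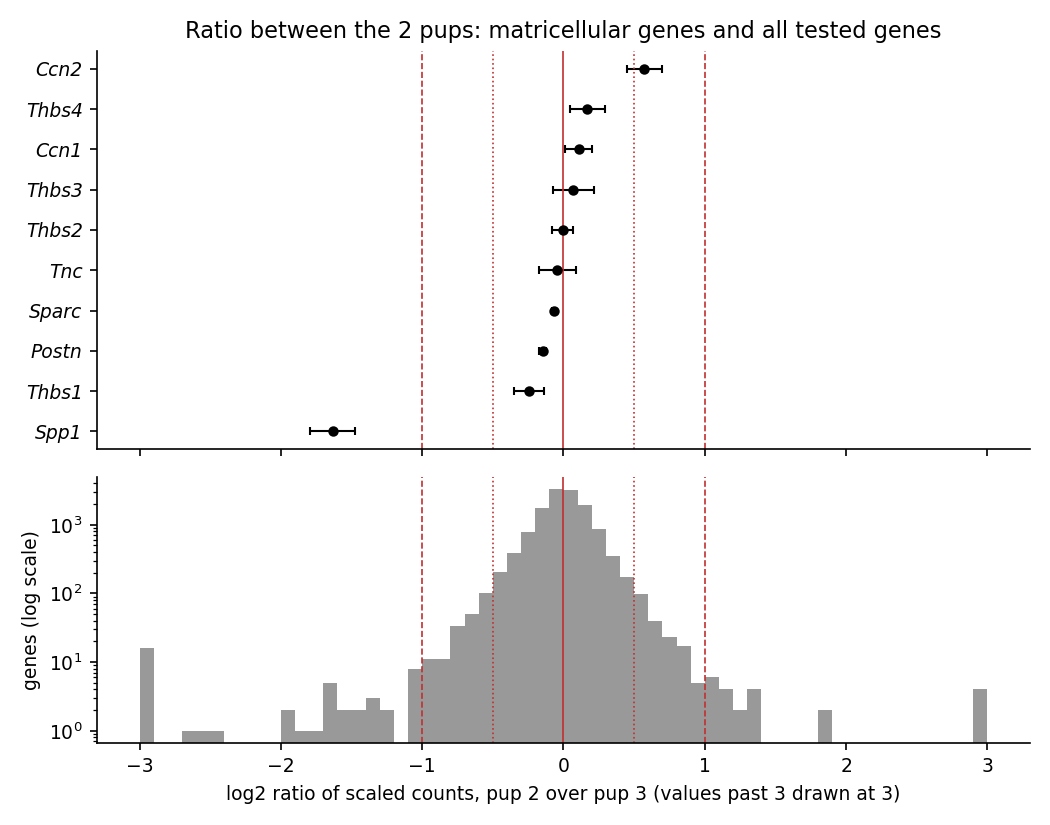
Upper panel, log2 ratio of scaled counts (pup 2 over pup 3) for the 10 members with 95% counting intervals; lower panel, histogram of the same ratio over all 13463 tested genes, with the number of genes on a log axis and values past 3 drawn at 3. Dotted lines stand at 0.5 and dashed lines at 1 on either side of equality: Spp1 (-1.63) lies beyond the dashed line and Ccn2 (0.57) beyond the dotted line.

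Of the 46 annotated transcripts, 39 had counts in at least 1 heart. Thbs2 and Ccn1 have 1 annotated transcript each, and Thbs1 took all its counts from Thbs1-201. Of the 8 members with more than 1 transcript, 6 had the same main transcript by TPM share in both hearts, and the other two, Postn and Tnc, did not. Among all genes with more than 1 transcript at 1 TPM or more in both hearts, 7.72% had different main transcripts in the pups.

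Postn was spread over 3 full-length forms. Postn-203, with the 81-base exon, took 33.4% of the gene's TPM in pup 2 and 29.1% in pup 3. Postn-201, with the 84-base exon, took 32.0% in pup 2 and 26.8% in pup 3. Postn-204, which lacks both exons, took 22.6% in pup 2 and 32.6% in pup 3. In level, Postn-204 was at 57.4 TPM in pup 2 and 90.5 TPM in pup 3, and it was the only Postn transcript whose deposited intervals did not overlap between the pups. The intervals of the 2 leading forms overlapped within each pup, however: Postn-203 and Postn-201 in pup 2, and Postn-204 and Postn-203 in pup 3. Which form led was therefore not resolved in either pup.

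Among full-length Postn transcripts, the 81-base exon shown above was carried by 38.0% of TPM in pup 2 and 32.9% in pup 3. The 84-base exon was carried by 36.4% in pup 2 and 30.3% in pup 3. Postn-202, the only annotated form with both exons, was near absent, at 0.07 TPM in pup 2 and listed at 0 in pup 3. It is annotated at 2670 bases, against 3189 for Postn-201 and 3202 for Postn-203. RNA with both exons and the length of those forms has no annotated transcript, so its level was not measured. Skipping of both accounted for 25.7% in pup 2 and 36.8% in pup 3. These shares were estimated by the authors' model from short reads, which seldom span both exons.

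Tnc was likewise divided, among transcripts at about 1 TPM each. Tnc-203, with the 273-base exon, was at 1.17 TPM in pup 2 and 0.85 TPM in pup 3. Tnc-204 was at 1.43 TPM in pup 2 and 1.22 TPM in pup 3, and Tnc-201 at 0.89 TPM in pup 2 and 1.49 TPM in pup 3. The intervals overlapped between the pups for each of these, and that of Tnc-201 ran from 0.161 to 1.56 TPM in pup 2. The change of main transcript in Tnc was therefore within the deposited error.

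For Sparc, the share depended on whether it was taken by TPM or by counts. Sparc-205, the retained-intron form, had 592 TPM in pup 2 and 572 TPM in pup 3, or 43.6% of the gene's TPM in pup 2 and 41.9% in pup 3. By expected counts its share was 21.4% in pup 2 and 19.9% in pup 3, and Sparc-201 led with 43.9% in pup 2 and 44.4% in pup 3. Transcripts under 1000 bases made up 54.2% of Sparc TPM in pup 2 and 51.5% in pup 3 but 25.8% of its counts in pup 2 and 23.8% in pup 3. Protein-coding Sparc transcripts summed to 765 TPM in pup 2 and 791 TPM in pup 3, still above the whole of Postn.

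The 3 Sparc splice forms shown above were all counted. Sparc-201, with 6 added bases, was at 355 TPM in pup 2 and 372 TPM in pup 3. Sparc-202, with 3 added bases, was at 268 TPM in pup 2 and 290 TPM in pup 3. The annotated 640-base Sparc-206, with none, was at 143 TPM in pup 2 and 129 TPM in pup 3. These transcripts also differ in their ends, so that their ratio is not a measure of the junction alone.

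Thbs3 showed the same dependence on short forms. Its only counted protein-coding transcript, Thbs3-201, took 39.7% of TPM in pup 2 and 41.3% in pup 3 but 78.0% of counts in pup 2 and 80.2% in pup 3. Thbs3-210, a 455-base retained-intron form, took 25.1% of TPM in pup 2 and 34.1% in pup 3, from 45.5 counts in pup 2 and 57.0 in pup 3. Thbs3 lies inside the span of Mtx1 on the opposite strand (75.7 TPM in pup 2 and 73.2 TPM in pup 3). The sources used here do not state whether counting used the strand, so reads of the 2 genes cannot be told apart with certainty. Both had whole-number counts, 802 in pup 2 and 748 in pup 3 for Thbs3 and 1514 in pup 2 and 1430 in pup 3 for Mtx1. Such counts show no sign of reads divided between genes. Ccn2 and its opposite-strand neighbour Gm15270 differed in this. Ccn2 had 1334.78 counts in pup 2 and 877.98 in pup 3, and Gm15270 had 178.22 in pup 2 and 120.02 in pup 3. In each pup the fractions add to a whole read, as when reads are divided between genes. Gm15270 was also higher in pup 2, but its counts are therefore not independent of Ccn2's.

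Ccn2-201 held 79.6% of TPM in pup 2 and 85.7% in pup 3, and the rest was mainly the 343-base Ccn2-202. The level of Ccn2-201 itself was 14.7 TPM in pup 2 and 9.90 TPM in pup 3, with intervals that did not overlap. Spp1-201 held 81.7% of TPM in pup 2 and 88.8% in pup 3, at 6.96 TPM in pup 2 and 23.4 TPM in pup 3. Spp1-205, which uses another first exon, was at 1.39 TPM in pup 2 and 2.63 TPM in pup 3. Of 22 member transcripts averaging at least 50 counts, 5 (Postn-204, Spp1-201, Thbs1-201, Thbs4-201 and Ccn2-201) had intervals that did not overlap between the pups, beside 11.3% of all such transcripts.

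**Figure D3:**
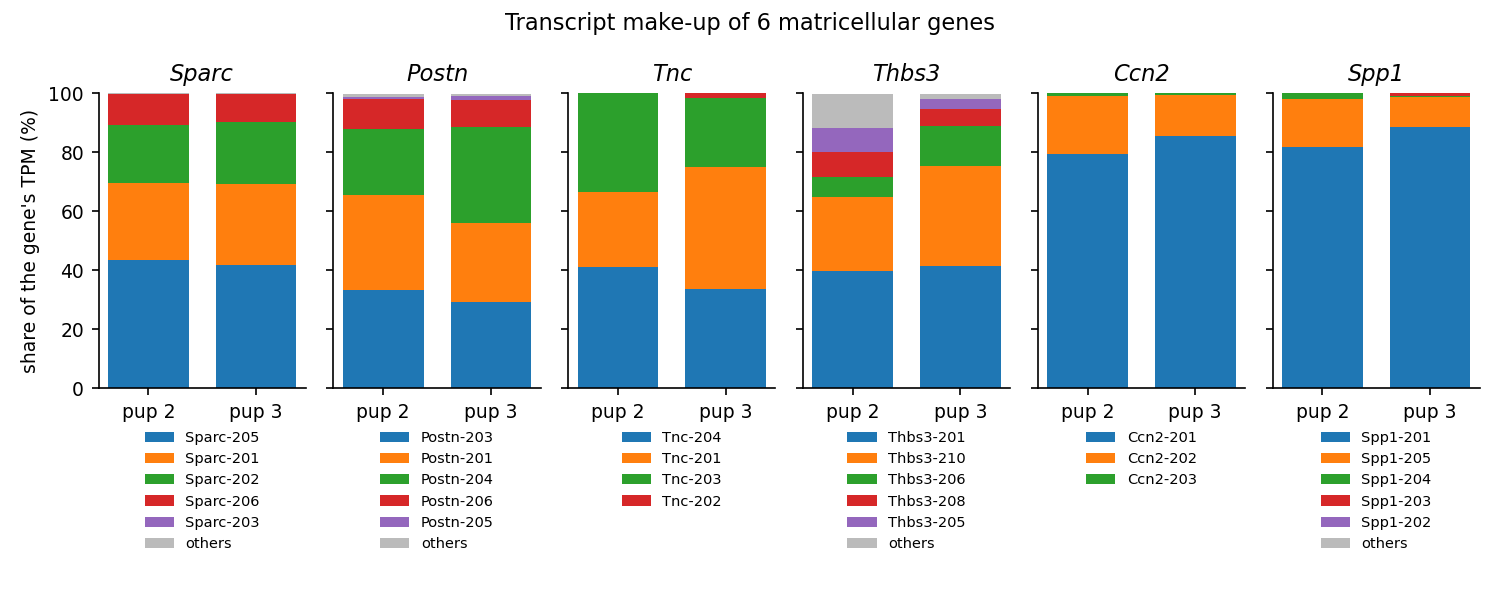
Share of each gene's TPM (y axis, percent) held by its transcripts in pup 2 and pup 3 (x axis) for 6 members; colours mark transcripts, ordered from the bottom by mean share. Postn-204 takes 22.6% in pup 2 and 32.6% in pup 3, while the Sparc shares stay within a few points of each other.

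The promoter windows of the members, from RefSeq (GRCm38.p6), run from 250 bases before to 50 after each annotated start. Windows were held for 8 of the 10 members, 11 windows in all, and Thbs1 and Ccn2 had none in the table. The TEAD motif GGAATG, searched on both strands, lay in windows of 2 members, Ccn1 and Thbs4, and in 14.7% of all 32851 windows. The letters TATAAA lay in windows of 5 members and in 13.6% of all windows. They began 26 bases before the start in Postn and 25 in Ccn1, about the usual distance of a TATA box, but 211 before it in Spp1, 126 in Thbs2 (on the other strand), and 126 and 205 in the 2 overlapping windows of Tnc, which hold the same match. Only these exact letters were searched, so similar ones were not counted, such as TATATAAG closer to the start in the Tnc window with the match at 205. These counts are of members, some with more than 1 window, while the shares are of windows. The AP-1 motif TGANTCA, in 7.81% of all windows, and the CArG box, bound by serum response factor and in 1.63% of all windows, had no match in the members' windows. The 2 TEAD matches in the Thbs4 window overlapped by 1 base, and matches to different motifs did not overlap. The 250 bases before the Ccn1 start (chr3:145649986-145650235, GRCm38.p6, minus strand) are shown because they hold both TATAAA and the TEAD motif, in capitals. The TEAD motif, 103 bases before the start, reads as its reverse complement, and TATAAA begins 25 bases before the start.
Ccn1 promoter: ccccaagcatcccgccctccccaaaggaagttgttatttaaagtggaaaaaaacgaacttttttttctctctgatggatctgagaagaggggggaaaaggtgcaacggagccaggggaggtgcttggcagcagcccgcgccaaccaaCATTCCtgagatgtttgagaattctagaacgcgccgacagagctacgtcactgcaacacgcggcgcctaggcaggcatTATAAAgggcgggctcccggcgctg

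A list of 23 other matricellular genes, their structural relatives, gives the setting of the members. Of these, 14 were detected at 1 TPM or more in both hearts, and they summed to 436 TPM in pup 2 and 454 TPM in pup 3. The highest were Fstl1, a follistatin-like glycoprotein with a SPARC-type calcium-binding domain, at 211 TPM in pup 2 and 209 TPM in pup 3, then Sparcl1, then Fbln1 (fibulin 1) at 40.2 TPM in pup 2 and 47.3 TPM in pup 3, and Ccn4 at 37.7 TPM in pup 2 and 37.2 TPM in pup 3. Ccn4 was thus above both Ccn1 and Ccn2. The bone matrix genes Dspp and Mepe, which belong with Spp1 to a family of small integrin-binding phosphoproteins, were listed at 0 in both hearts. Of 15 relatives tested, 2 (Ccn5, and Spock3, which is named after its values were seen) passed 0.5, both higher in pup 3 (background 1.87%). Both rested on few counts. Spock3 had 39 in pup 2 and 61 in pup 3, at the minimum mean count of 50, and Ccn5 had 65 in pup 2 and 126 in pup 3.

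Receptors of these proteins were present in both hearts. Of 18 listed, 16 were detected in both hearts, and none of the 18 tested passed 0.5, a count near the background of 3.39%. Cd36, a thrombospondin receptor and fatty acid transporter, was at 357 TPM in pup 2 and 357 TPM in pup 3. Itgb1, the integrin beta 1 chain shared by most of their integrin receptors, was at 241 TPM in pup 2 and 219 TPM in pup 3. Cd47, a thrombospondin 1 receptor, had 60.5 TPM in pup 2 and 63.0 TPM in pup 3, and Itga5, the fibronectin receptor chain, had 35.1 TPM in pup 2 and 32.9 TPM in pup 3.

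Of 16 matrix partners and processing enzymes listed, 14 were detected and none of 15 tested passed 0.5, again near the background of 3.39%. The fibrillar collagens Col3a1 (452 TPM in pup 2 and 473 TPM in pup 3) and Col1a1 (254 TPM in pup 2 and 261 TPM in pup 3), with which SPARC and periostin associate, were at levels between those of Postn and Sparc or close to Postn. Col1a2 had 150 TPM in pup 2 and 160 TPM in pup 3, and Tgm2, a crosslinking transglutaminase, 118 TPM in pup 2 and 103 TPM in pup 3.

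Genes of the transforming growth factor beta, YAP and serum response factor inputs had a median log2 ratio of -0.002, with 19 of 21 detected. Ankrd1, a cardiac ankyrin-repeat gene and YAP target, was the highest, at 531 TPM in pup 2 and 390 TPM in pup 3 (log2 ratio 0.43). The TEAD factor Tead2 had 31.7 TPM in pup 2 and 33.5 TPM in pup 3, and Wwtr1, which encodes the YAP paralogue TAZ, had 19.9 TPM in pup 2 and 18.8 TPM in pup 3. Of 20 tested, 1 passed 0.5, near the background of 3.39%, and it was higher in pup 2: Srf, which encodes serum response factor itself (5.35 TPM in pup 2 and 3.53 TPM in pup 3), named after its value was seen.

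The immediate-early list, genes that cells induce within minutes of a stimulus, varied more between the pups, and Ccn1 and Ccn2 are often grouped with them. Of 11 tested, 4 passed 0.5, against 3.39% of all genes, and they did not move one way. Jun was at 56.4 TPM in pup 2 and 37.4 TPM in pup 3, and Atf3, named after its value was seen, at 10.6 TPM in pup 2 and 4.15 TPM in pup 3, both higher in pup 2. Egr1 and Fos, likewise chosen after their values were seen, were lower in pup 2, with log2 ratios of -0.67 and -0.75. Their part in the Ccn2 result was not tested.

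The list of endoplasmic reticulum partners, chaperones together with the stress sensor Atf6, which mouse Thbs4 binds, had a median log2 ratio of -0.37. All 8 were detected, and 7 of 8 were higher in pup 3, as were 49.6% of all tested genes. Past 0.5 there were 2, both higher in pup 3, where 1.87% of all tested genes were. Hspa5, the main chaperone of this compartment, was at 264 TPM in pup 2 and 329 TPM in pup 3, and Calr (calreticulin) was at 153 TPM in pup 2 and 200.4 TPM in pup 3. Manf, a secreted stress protein, was at 66.9 TPM in pup 2 and 103 TPM in pup 3. Thbs4 itself went the other way, being higher in pup 2 (log2 ratio 0.17).

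Markers of other cell types were set beside the Spp1 and Ccn2 differences. All 6 macrophage markers were higher in pup 3, as Spp1 was, (49.6% of all tested genes were), with a median log2 ratio of -0.29 and a sum of 57.1 TPM in pup 2 and 65.2 TPM in pup 3. Lyz2, the most abundant of them, had 43.3 TPM in pup 2 and 48.5 TPM in pup 3, and Csf1r, the receptor that macrophages need for survival, had 5.22 TPM in pup 2 and 5.44 TPM in pup 3. Past 0.5 were 2 of the 6, both higher in pup 3, where 1.87% of all tested genes were. Cd68 had 4.70 TPM in pup 2 and 6.45 TPM in pup 3 (log2 ratio -0.52), from 195 counts in pup 2 and 274 in pup 3. Cd163 had 0.26 TPM in pup 2 and 0.44 TPM in pup 3 (-0.78). It rested on 42 counts in pup 2 and 72 in pup 3, near the minimum mean count of 50. The lung epithelial markers summed to 31.3 TPM in pup 2 and 639 TPM in pup 3, mostly Scgb3a2. Of the 4 tested, Scgb3a2 and Scgb1a1 were higher in pup 3, and Sftpc (log2 ratio 5.94) and Ager (1.11) were higher in pup 2. Of the 8 tendon, cartilage and bone markers, the bone gene Bglap was listed at 0 in both hearts, Sp7 was at 0.01 TPM in pup 2 and 0.02 TPM in pup 3, and Chad, a cartilage leucine-rich repeat protein, was at 0.27 TPM in pup 2 and 3.30 TPM in pup 3. The more abundant members of that list differed less: Scx, a tendon transcription factor, had 6.42 TPM in pup 2 and 5.59 TPM in pup 3, and Fmod (fibromodulin) 5.87 TPM in pup 2 and 6.73 TPM in pup 3. Their part in the Spp1 difference was not tested, and with 1 library per animal it cannot be told apart from a difference between the animals.

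The fibroblast markers, 6 of 6 detected, summed to 627 TPM in pup 2 and 681 TPM in pup 3. Their log2 ratios ran from -0.24 to 0.16 with a median of -0.10. The ratio of Postn was -0.15, and the part of fibroblast content in it was not tested. Smooth muscle and pericyte markers summed to 1213 TPM in pup 2 and 972 TPM in pup 3, and their median log2 ratio was 0.10. The sum was mostly Acta2, which had 1130 TPM in pup 2 and 884 TPM in pup 3, and it follows that gene. Tagln (log2 ratio -0.26) and Cnn1 (-0.11) were higher in pup 3, and the rest of the list was higher in pup 2. Endothelial markers (186 TPM in pup 2 and 174 TPM in pup 3) and epicardial markers (81.1 TPM in pup 2 and 82.4 TPM in pup 3) differed by little. Platelet markers, from cells that store thrombospondin 1, summed to 8.33 TPM in pup 2 and 8.70 TPM in pup 3. Neutrophil markers summed to 32.6 TPM in pup 2 and 32.8 TPM in pup 3, Schwann cell and neuron markers to 1.70 TPM in pup 2 and 2.78 TPM in pup 3, and skeletal muscle markers to 4.68 TPM in pup 2 and 5.08 TPM in pup 3.

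**Figure D4:**
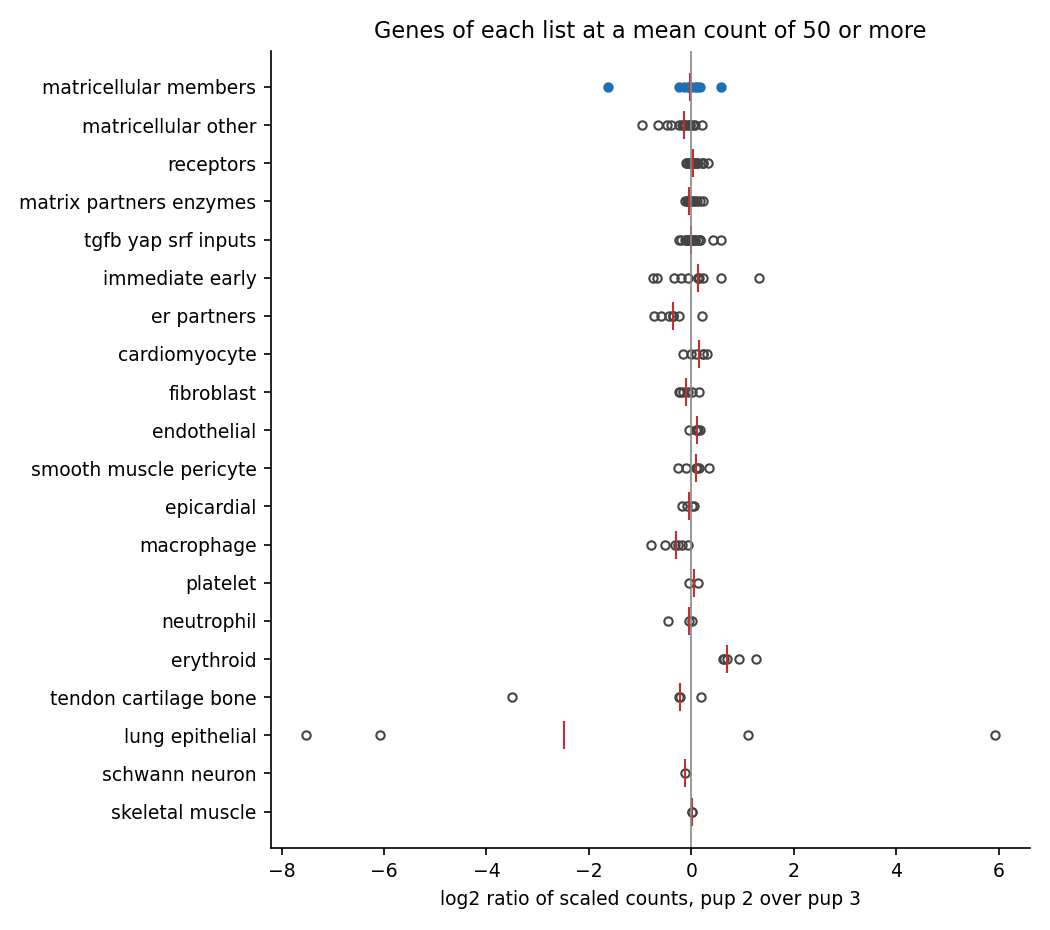
Log2 ratio of scaled counts (x axis, pup 2 over pup 3) of the tested genes (at least 50 counts on average) among the members and in each list (y axis); red ticks are medians. Receptors and matrix partners lie close to 0, all 6 macrophage markers lie below it, all 5 erythroid markers above it, and the lung epithelial markers spread from -7.53 to 5.94.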

How the data were processed

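Whole hearts of 2 littermates were profiled by total RNA-seq from 10 ng of RNA, with molecules over 200 bases kept and spike-ins added, per the labels. The authors deposited expected counts, TPM, FPKM, posterior mean counts and percent isoform shares per gene and transcript, on mm10 with the GENCODE M4 annotation per the deposited read-me. The aligner and the versions used were not stated in the labels or the read-me. The deposited interval bounds of TPM, a signal on the TPM scale of unstated width, and the standard deviations came with the estimates, per the file headers.

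Symbols and coordinates came from GENCODE M21 by Ensembl ID. Expected counts were scaled by TMM (edgeR 4.0.16, R 4.3.3), and log2 ratios used a prior count of 2. With 1 library per animal edgeR's test could not be run, so the share of all 13463 genes past the same ratio served as background. Counting intervals are exact 95% conditional binomial intervals. Ratios between genes used TPM + 1. The ratio script was checked on simulated counts.

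The 10 members, every member of the fixed pairs, and at most the 4 most abundant genes of other lists were named. Spock3, Dspp, Mepe, Srf, Atf3, Egr1, Fos, Atf6, Cd163, Bglap and Sp7 fall outside that rule and were named after their values were seen. Members and lists were chosen with earlier results of these data known. Protein features were not run here.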

Additional observations from a re-analysis of the deposited data

How the results depend on the processing

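By counts without division by length, Sparc and Postn held 89.8% of the members' sum in place of 94.0%, and 3 neighbouring pairs were separated in place of 5. The ratio of Thbs3 over Thbs4 then turned to -0.50 and that of Thbs1 over Thbs4 to 0.36; with protein-coding transcripts only, Thbs3 over Thbs4 turned to -0.75. Thbs1 over Thbs4 turned only without division by length, and stayed at -0.46 with protein-coding transcripts only. For Thbs3 over Thbs4, the parts of gene length and of short noncoding forms were not separated. The log2 ratio of Spp1 between the pups ran from -1.69 (spike-in scaling) to -1.52 (TPM ratio) and that of Ccn2 from 0.51 (spike-in scaling) to 0.63 (TPM ratio). Spike-in scaling rested on only 262 spike-in counts in pup 2 and 246 in pup 3, and Ccn2 then lay close to 0.5. In each of the 11 alternatives, 1 member passed 1 and 2 passed 0.5. Those that changed only the count minimum could not alter this, since no member had fewer than 429 counts. The background did move: 67 genes passed 1 and 456 passed 0.5, against 39 and 225 as a TPM ratio, 1923 and 6327 of 43346 with no filter, 421 and 1606 of 16593 at a mean count of 10, and, past 0.5, 259 of 12304 at a mean count of 100. As shares past 0.5 these are 1.67%, 14.6%, 9.68% and 2.11%, beside 3.39%. Without either pup, Sparc and Postn held 93.9% to 94.2% of the sum. The other 58 summary values stayed within the spread between pups or within 1.5 times. No paired analysis was possible because the study holds 1 group. Protein features were not run. The lowest count of a member was 429, and 2 animals give no estimate of the spread between animals beyond their difference.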
